A study of Homo sapiens with 2 samples.

Results

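The sites described here are the RNA peaks listed under microRNA genes, which encode the short RNAs that guide Argonaute proteins to messenger RNA. Every row of the 2 deposited peak lists was kept whose Ensembl gene identifier, matched without its version number, has the gene type miRNA in GENCODE release 29. This gave 422 of 210205 rows, with 212 of 100792 rows in replicate 1 and 210 of 109413 rows in replicate 2. The identifier was the same as in GENCODE 29 down to its version for 142 rows in replicate 1 and 138 rows in replicate 2. No measured value entered the choice, and all 422 rows are accounted for below, with no filter on low values.

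Both libraries belong to the only group of the series, labelled TRACER, a name that the labels do not explain. They are small-RNA libraries from the cytoplasm of HEK293T, an established human embryonic kidney cell line, after 24 hours with doxycycline at 3 ug/mL. RNA was taken with Trizol and the libraries followed a Qiagen microRNA protocol, per the labels, and the stated purpose was to find RNA elements bound to CCR4-NOT. The labels name no gene under doxycycline control and list no control library, so no comparison between conditions exists. Whether the replicates came from different cultures is not labelled, and their spread may be technical alone.

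A microRNA is cut from a hairpin in a primary transcript by Drosha and then by Dicer, which leaves a duplex of a 5p and a 3p strand. Usually the strand from a preferred arm stays bound to Argonaute, and its bases 2 to 8, the seed, pair with target messenger RNAs, so microRNAs with the same seed form a family. Argonaute binds TNRC6 proteins, which recruit the deadenylase complex CCR4-NOT to shorten the poly(A) tail of the target. Many microRNA genes lie close together and are cut from a shared primary transcript, often within an intron of a host gene.

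Members of several leading seed families are shown first, because families are defined by their seeds. They were picked to show shared seeds and are not a ranking of single sequences. The sequences are mature forms from RefSeq on GRCh38.p14, 5′ to 3′, with the seed in capitals. RefSeq held a mature sequence for 190 of the 208 microRNA genes that had a peak.
miR-221-3p: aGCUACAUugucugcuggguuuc
miR-222-3p: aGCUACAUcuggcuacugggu
let-7a-5p: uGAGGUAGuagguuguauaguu
let-7f-5p: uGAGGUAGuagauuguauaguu
miR-181a-5p: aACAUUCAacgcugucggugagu
miR-181b-5p: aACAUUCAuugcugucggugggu
miR-93-5p: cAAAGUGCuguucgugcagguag
miR-25-3p: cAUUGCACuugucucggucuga
miR-103a-3p: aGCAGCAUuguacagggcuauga
miR-107: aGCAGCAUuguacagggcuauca
miR-16-5p: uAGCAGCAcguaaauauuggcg
miR-26a-5p: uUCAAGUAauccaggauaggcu
miR-196a-5p: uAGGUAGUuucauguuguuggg

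Peaks lay on 188 microRNA genes in replicate 1 and on 189 in replicate 2, which made 208 genes in all, or 11.1% of the 1879 microRNA genes in GENCODE 29. Of these, 169 had a peak in both libraries, which is 81.2%. Among all 20048 gene identifiers in the lists, 80.2% had a peak in both, so the share for microRNA genes was close to the background. The microRNA peaks took 0.168% ± 0.0112 of all reads in peaks (mean ± SD, n = 2) and 0.201% ± 0.0130 of all rows. Every peak lay inside the annotated hairpin, whose median length was 85 nt. Rows were chosen by gene entry, so this is a check of the match and not a result about the peaks. Each deposited read number is a raw count without normalisation and the sequencing depth is not given in the files, so reads are compared between genes of a library and not converted to an abundance. In 11 sets of replicate 1 and 7 sets of replicate 2, a gene had adjoining peaks at most 10 nt apart, and such a set was counted in the gene's reads by its highest peak. A few genes did not dominate: the 10 leading genes held 17.7% of the microRNA reads, the 25 leading genes 34.7% and the 50 leading genes 55.8%. Mean reads over both libraries were under 5 for 51 genes and at least 40 for 7 genes.

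Peaks as listed under microRNA genes were narrower and held more reads than peaks at large. Their median width was 21 nt in each library, against 27 nt in replicate 1 and 28 nt in replicate 2 over all peaks. A width of 15 to 30 nt, which spans the length of a mature microRNA, was found in 82.1% of the microRNA peaks of replicate 1 and 82.4% of those of replicate 2, against 43.9% and 41.9% of all peaks. The median microRNA peak held 10 reads in replicate 1 and 9 in replicate 2, against 6 in each library over all peaks. The highest microRNA peak held 72 reads in replicate 1 and 61 in replicate 2, far below the 12122 and 13919 reads of the highest peaks in the lists. The difference in width between microRNA peaks and all peaks was thus of like size in both libraries. It is given without a test, since peaks of a library are not replicates. It holds for widths under the microRNA entry only. Most of these sites were also listed under another gene entry, where their median width was 27 nt in both libraries.

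The gene with the highest mean was MIR6723, which resembles mitochondrial sequence and is described with its like below. The next genes were a pair from the X chromosome that share a seed. MIR221 had 55 reads in replicate 1 and 61 in replicate 2, and MIR222 had 67 and 48. Their products are known to repress the cell cycle inhibitor CDKN1B. The genes lie on the minus strand of GRCh38 at chrX:45746157-45746266 and chrX:45747015-45747124, within an intron of the non-coding host MIR222HG. MIR93, in an intron of MCM7 at chr7:100093768-100093847 on the minus strand, had 63 reads in replicate 1 and 44 in replicate 2. MIR181A1, at chr1:198859044-198859153 on the minus strand, had 50 and 55. MIR425, at chr3:49020148-49020234 on the minus strand in an intron of DALRD3, had 52 and 51. No other gene reached a mean of 40 reads except MIR181A2, with 46 in replicate 1 and 35 in replicate 2. These values differ between genes by less than they differ between libraries for several neighbours in the order, so the order among the leading genes is not firm.

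**Figure D1:**
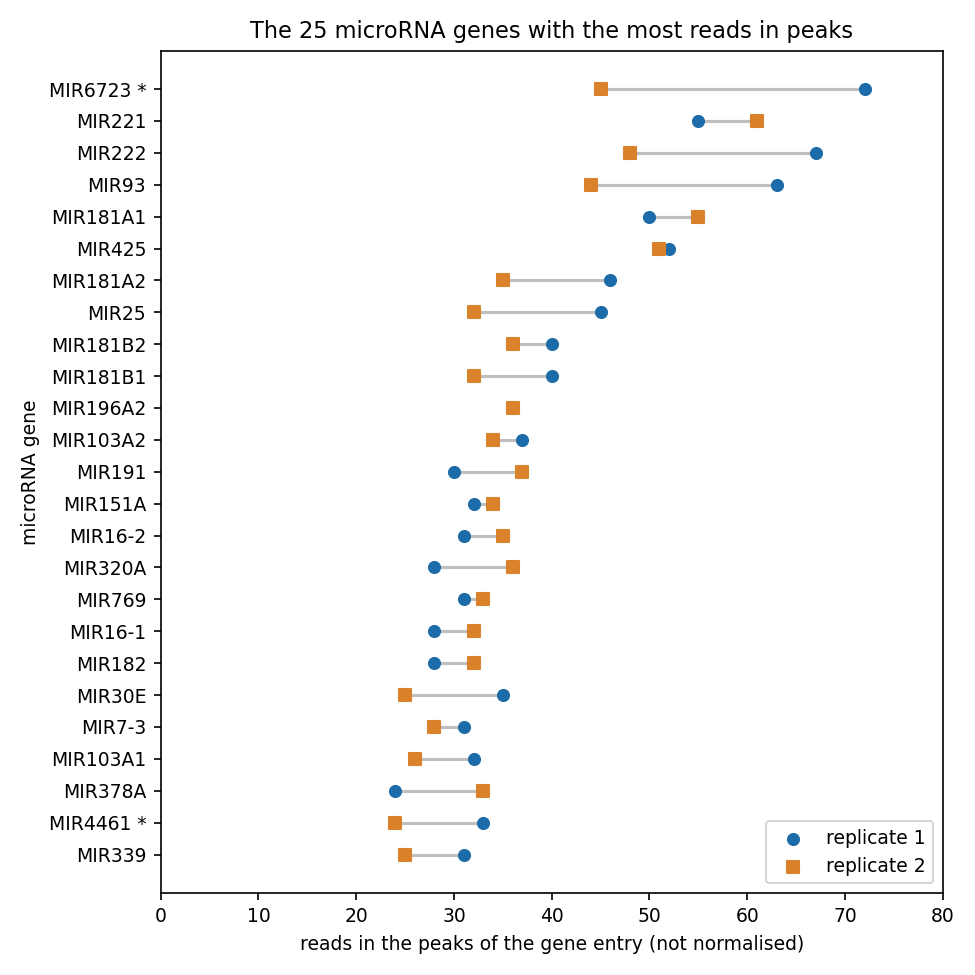
Reads in the peaks of the 25 microRNA genes with the highest mean, on a linear axis of raw read numbers. Circles stand for replicate 1, squares for replicate 2 and the grey line joins them. An asterisk marks genes that resemble mitochondrial RNA, MIR6723 with 72 and 45 reads and MIR4461 with 33 and 24.

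Reads were next summed over microRNAs with the same seed. The peaks with a summit on a mature sequence covered 179 different sequences, of which 16 came from at least 2 loci, and these fell into 152 seeds. Only RefSeq mature entries of the same locus count here, so more sequences are shared than this number shows. The peaks of MIR7-2, for example, cover the sequence of miR-7-5p, which RefSeq lists at MIR7-3. The submitters' file names give a limit of 5 loci per read, so a read from an identical mature sequence can be listed at every such locus. In the 30 cases of a library and a shared sequence with reads at all its loci, the loci were within 1.5-fold in 26 and equal in 7, and the largest fold between them was 1.8. MIR181B1 had 40 reads in replicate 1 and 32 in replicate 2, for example, and MIR181B2, on another chromosome, had 40 and 36. MIR16-1 had 28 and 32, and MIR16-2 had 31 and 35. For this reason each mature sequence was counted once, at the locus with the most reads, in the sums by seed that follow, and the reads cannot be assigned to a locus.

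Counted in this way, the leading family by seed among these sequences was miR-221 and miR-222, with 103 reads in replicate 1 and 109 in replicate 2. With every locus counted, the order of the leading families changed, with 154 and 147 reads for miR-181, 130 and 120 for let-7, and 103 and 109 for miR-221 and miR-222. Hairpins under identifiers that GENCODE 29 does not have are not in these sums, among them MIR92A1 with 62 and 63 reads and MIR17 with 26 and 31. Genes of the set without a RefSeq mature sequence are missing too, such as MIR30D with 24 and 29 reads and MIR320A with 28 and 36. The order of families therefore holds only for the sequences counted and could change with these hairpins. The let-7 family, which is known to hold back cell proliferation and to be blocked by LIN28, had 97 and 89 reads over 8 mature sequences. The miR-181 family, known for its part in lymphocyte development, had 83 and 80 reads over miR-181a, miR-181b and miR-181c. The seed of miR-93-5p had 63 reads in replicate 1 and 44 in replicate 2, and that of miR-25-3p and miR-32-5p had 51 and 37. For the pair miR-103a-3p and miR-107, which come from introns of the pantothenate kinase genes PANK1, PANK2 and PANK3, there were 48 and 44 reads. The 10 leading seeds held 30.1% of these reads in replicate 1 and 28.6% in replicate 2. Families of lower rank in these sums were miR-30 5p, without MIR30D, with 46 and 41 reads, and miR-15b and miR-16 with 41 and 44. For miR-148 and miR-152 there were 39 and 42 reads, and for miR-26 37 and 38. The miR-30 family is known from the kidney, and miR-16 is known to repress BCL2 and cyclins. The seed of miR-196a, a microRNA encoded in the HOX clusters that cuts HOXB8 messenger RNA, had 36 reads in each library.

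**Figure D2:**
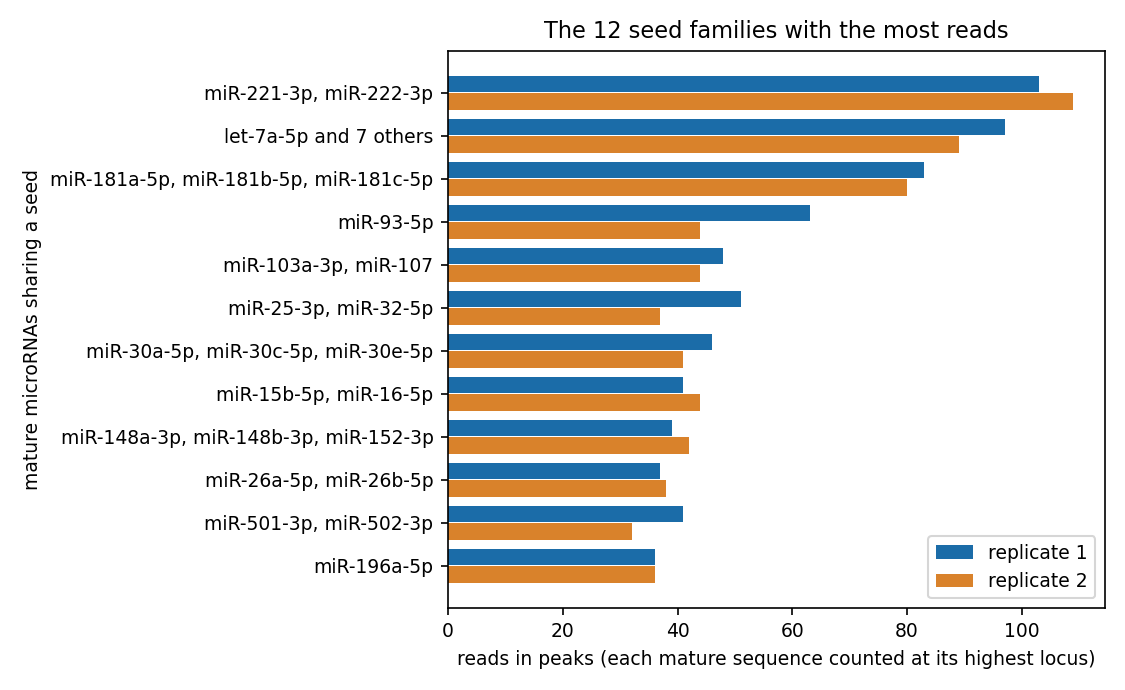
Reads per seed family for the 12 leading families, on a linear axis starting at 0, with each mature sequence counted at the locus with the most reads. Bars stand for replicate 1 and replicate 2. The miR-221 and miR-222 seed leads with 103 and 109 reads, followed by let-7 with 97 and 89.

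The families listed from knowledge of HEK293T and of common microRNAs were covered to different degrees. Over all annotated microRNA genes, 11.1% had a peak. Since the families were picked from such knowledge, shares above that value are not read as a result about them. All members had a peak for miR-221 and miR-222 (2 of 2), miR-26 (3 of 3), miR-103 and miR-107 (3 of 3), the miR-183 cluster (3 of 3), miR-101 (2 of 2) and miR-30 (6 of 6, of which 5 in both libraries). For let-7, 10 of 12 genes had a peak under a GENCODE 29 identifier, and for miR-181 5 of 6. MIRLET7A3 and MIRLET7B, the other let-7 genes, had peaks under identifiers that GENCODE 29 does not have. The same holds for MIR10A and MIR24-2, of families given below. The leading let-7 genes were MIRLET7A1 with 29 reads in replicate 1 and 18 in replicate 2, and MIRLET7F1 with 23 and 26. MIR101-1 had 20 and 15 reads and MIR101-2 had 23 and 16, for a microRNA known to target the histone methyltransferase EZH2. The sequences under these peaks are nearly the same, so a read can be listed at both loci. In the family of miR-10, miR-99, miR-100 and miR-125, 6 of 8 genes had a peak, with 73 reads in replicate 1 and 72 in replicate 2. In that of miR-23, miR-27 and miR-24, 3 of 6 had a peak, with 35 and 38 reads. MIR301A and MIR301B, of the 4 genes of miR-130 and miR-301, had 14 and 15 reads together. For the miR-17 to 92 cluster and its paralogs, only MIR25, MIR93 and MIR106B, 3 of 15, appear among the GENCODE 29 identifiers, and for miR-29 0 of 4, a gap taken up below.

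The lists also hold peaks on microRNA hairpins under identifiers that GENCODE 29 does not have, and these are not among the 422. Of 237 such identifiers, 68 lay inside 69 annotated hairpins, with 74 rows and 1014 reads in replicate 1 and 73 rows and 963 reads in replicate 2. Peaks were present in both libraries on 59 of these hairpins. The leading hairpin was MIR10A, from the HOXB cluster, with 81 reads in replicate 1 and 68 in replicate 2, which is above every gene in the set of 208. MIR92A1 had 62 and 63 reads, MIR1307 57 and 58, and MIR423 45 and 50. MIR17, which gives its name to an oncogenic cluster, had 26 and 31 reads, and the 4 miR-29 genes had 39 and 44 in all. MIR21, a microRNA abundant in many cancers, had 14 and 12 reads. Of the 69 hairpins, 36 overlapped an exon of a protein-coding gene on the same strand, as do 218 of all 1879 annotated microRNA genes, but 0 of the 208 genes did so. The rule therefore leaves out microRNAs in protein-coding exons and others, and counts over families and clusters are lower limits for the lists as a whole.

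By genomic cluster, defined as annotated microRNA genes on the same strand with gaps of at most 10 kb, peaks fell on at least 2 genes in 23 clusters. These clusters hold 62 annotated microRNA genes, 56 of them with a peak, and took 38.7% of the microRNA reads in replicate 1 and 38.3% in replicate 2. Clusters were kept for having at least 2 genes with a peak, and 17 of the 23 had exactly 2. The 56 of 62 is therefore largely set by that choice and is not a result about clusters. The cluster of MIR25, MIR93 and MIR106B in an intron of MCM7, a subunit of the replication helicase, had 134 reads in replicate 1 and 98 in replicate 2. Within it, MIR25 had 45 and 32 reads, and MIR106B had 26 and 22, so MIR93 led in both libraries. MIR221 and MIR222 had 122 and 109 together. The widest of the leading clusters, in introns of the chloride transporter gene CLCN5 at chrX:50003148-50014683 on the plus strand, had peaks on 7 of its 8 genes, with 111 reads in replicate 1 and 86 in replicate 2. Its leading gene was MIR501, with 30 and 24.

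MIR181B1 and MIR181A1 on chromosome 1 had 90 and 87 reads, and MIR181A2 and MIR181B2 on chromosome 9 had 86 and 71. MIR425 and MIR191, both in DALRD3, had 82 and 88. MIR182, MIR96 and MIR183, known from sensory organs, had 64 reads in replicate 1 and 65 in replicate 2, with 28 and 32 for MIR182 and 27 and 25 for MIR183. The cluster of MIRLET7A1, MIRLET7F1 and MIRLET7D had 52 and 48 reads. MIR15B and MIR16-2, in an intron of the condensin gene SMC4, had 41 and 51, and MIR30E with MIR30C1, in NFYC, had 45 and 37. Of 6 genes in the cluster with MIR503, 3 had a peak under a GENCODE 29 identifier (41 reads in each library). Members of a cluster did not have equal reads, and since a read can be listed at several loci of identical sequence, a cluster's sum may hold reads that other loci hold too.

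Most of the genes with a peak lie in introns. Of the 208, 122 lie in an intron of a protein-coding gene, with 1545 reads in replicate 1 and 1520 in replicate 2, and 37 in an intron of a non-coding gene, with 716 and 635. A further 43 lie outside other genes, with 465 and 473 reads, 4 overlap a small nucleolar RNA and 2 overlap an exon of a non-coding gene. The lists can give a site under more than 1 gene, and 159 of the 212 microRNA peaks of replicate 1 and 158 of the 210 of replicate 2 were overlapped by a peak of another gene entry on the same strand. The read numbers of the paired entries were nearly the same, within 10% of the microRNA entry in 145 of 159 cases in replicate 1 and 139 of 158 in replicate 2. MIR221 had 55 and 61 reads under its own entry and 55 and 61 under MIR222HG. Such reads are therefore listed under both genes.

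The deposited p-value of a site depended on the entry under which it was listed. In replicate 1, 41 of 212 microRNA peaks (19.3%) had a deposited p-value at or under 1e-05, against 33.5% of all peaks. In replicate 2 there were 37 of 210 (17.6%), against 36.1%. Where the same site also had a peak under another gene entry, 21.4% of the microRNA entries in replicate 1 and 17.7% in replicate 2 were at or under 1e-05, against 66.0% and 69.6% of the overlapping entries. Widths differed too, with a median of 21 nt under the microRNA entry and 27 nt under the other entry in both libraries. The reads of the paired entries were, as given above, nearly equal.

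Within the hairpin, nearly all summits lay on a mature microRNA. As the summit of a peak, the midpoint of the interval marked by the peak caller was taken. Of the peaks in hairpins with a mature entry, 183 of 195 in replicate 1 (93.8%, exact 95% binomial interval 89.5 to 96.8%) and 179 of 192 in replicate 2 (93.2%, 88.7 to 96.3%) had the summit on a mature sequence. Mature sequences take up 43.5% of the length of these hairpins. The intervals cover counting error only. The 12 and 13 peaks outside a mature entry all lay in hairpins for which RefSeq held a single mature entry. In hairpins with 2 mature entries the share was 144 of 144 in replicate 1 and 145 of 145 in replicate 2, where the lower bound of the exact interval was 97.5% in each.

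MIR221 and MIR181A1 show the place of the peaks on the hairpin. Bases covered by peaks of both libraries are in capitals in these RefSeq hairpins, written 5′ to 3′ on the minus strand of GRCh38.p14, with a single covered stretch for MIR221 and a covered stretch on each arm for MIR181A1.
MIR221: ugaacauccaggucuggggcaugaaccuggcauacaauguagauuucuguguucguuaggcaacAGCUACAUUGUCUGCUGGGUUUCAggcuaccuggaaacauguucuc
MIR181A1: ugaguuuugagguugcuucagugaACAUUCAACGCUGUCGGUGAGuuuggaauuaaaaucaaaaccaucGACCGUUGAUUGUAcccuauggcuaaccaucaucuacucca
The peak of MIR221 ran over the same 24 nt in both libraries, beginning at the first base of miR-221-3p and ending 1 nt past its last. On MIR181A1 the 5p peak had 31 reads in replicate 1 and 35 in replicate 2, and the 3p peak had 19 and 20. The 5p sequence is also that of MIR181A2, where it had 33 and 35 reads, while the 3p sequences of both genes differ, so the reads of the arms of MIR181A1 cannot be ranked. The 3p peak spanned 15 nt in replicate 1 and 14 nt in replicate 2 and covered the inner part of miR-181a-3p.

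Arm use was nearly the same in both libraries. Summits on the 5p arm made up 50.3% of peaks in replicate 1 and 50.5% in replicate 2, and summits on the 3p arm 43.6% and 42.7%. Of 141 genes with both arms in RefSeq, 117 had a mature summit in both libraries. In 59 of them it was on the 5p arm alone in both libraries, in 43 on the 3p arm alone, and in 6 on both arms. The 6 genes with both arms were MIR181A1, MIR769, MIR30E, MIR339, MIR361 and MIR324. MIR769, in an intron of CCDC61, had 18 reads in each library on 5p, and 13 in replicate 1 and 15 in replicate 2 on 3p. MIR30E had 20 and 11 reads on 5p, and 15 and 14 on 3p, so its leading arm differed between the libraries. MIR361, in an intron of CHM, had 15 and 16 reads on 5p and 11 in each library on 3p. MIR425 had a 3p peak of 24 reads in replicate 1 and 23 in replicate 2, and a further peak of 28 reads in each library. That further peak lay on the 5p side of the hairpin, where the RefSeq set used here held no mature entry.

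The remaining 9 of the 117 genes differed in arm between the libraries. In 8, among them MIR222 and MIR181A2, a peak on a second arm appeared in only 1 library. The 5p arm of MIR222 had a peak of 19 reads and 5 nt in replicate 1 and no peak in replicate 2, while its 3p arm had 48 reads in each. The opposite arms were found for MIR708, with 5 reads over 10 nt on 3p in replicate 1 and 8 reads over 24 nt on 5p in replicate 2. No gene with 10 or more reads in both libraries changed from one arm to the opposite arm.

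As listed under the microRNA entry, the 5′ ends of the peaks fitted the mature sequence more closely than the 3′ ends. The first base of the peak was the first base of the microRNA in 90 of 183 peaks in replicate 1 (49.2%) and 89 of 179 in replicate 2 (49.7%), and lay within 1 nt of it in 81.4% and 78.8%. The last base coincided in 37 peaks of each library, 20.2% in replicate 1 and 20.7% in replicate 2, and lay within 1 nt in 51.9% and 49.2%. The 5′ end of a microRNA sets its seed, and the 3′ end is known to be trimmed and tailed. The peak of MIR93 matched miR-93-5p at both ends in both libraries, over 23 nt. The peak of MIR222 started with miR-222-3p and ran 4 nt past it in replicate 1 and 5 nt in replicate 2. Peaks ended past the mature sequence in 49 cases in replicate 1 and 55 in replicate 2, and ended before it in 97 and 87. Where a site was also listed under another entry, its median width there was 27 nt, against 21 nt here. Ends under those entries were not compared with the mature sequence.

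**Figure D3:**
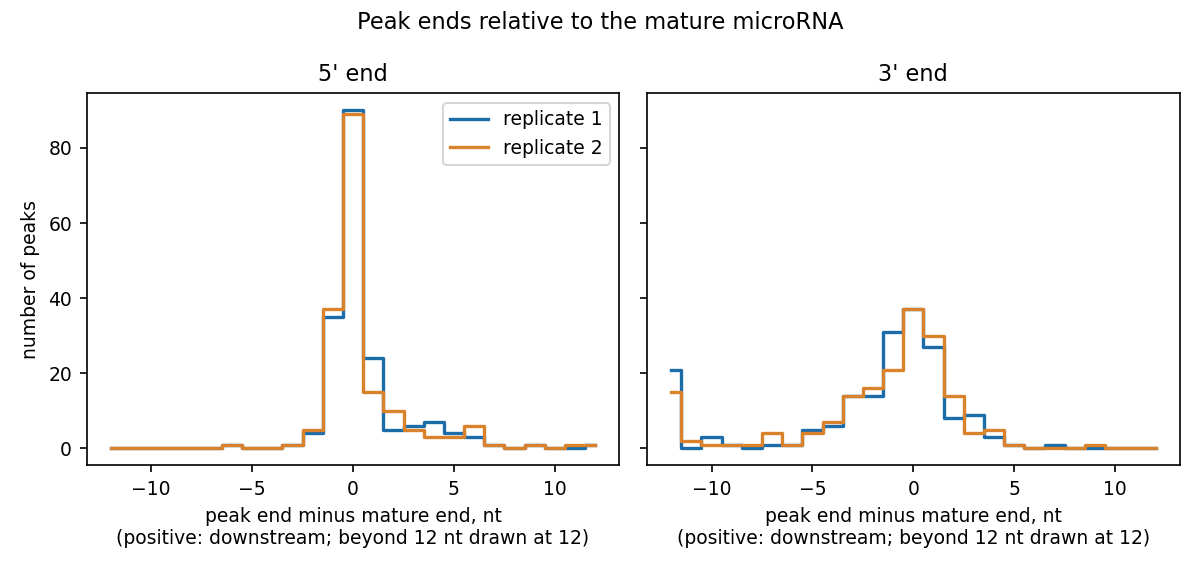
Distance in nt of the peak's 5′ end (left) and 3′ end (right) from the same end of the mature microRNA, for peaks with a summit on a mature sequence, with distances beyond 12 nt drawn at 12. Ends are those listed under the microRNA entry. The stepped lines stand for replicate 1 and replicate 2 and the vertical axis counts peaks. The 5′ ends coincide in 49.2% of peaks in replicate 1 and 49.7% in replicate 2, the 3′ ends in 20.2% and 20.7%.

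The longest gaps at the 3′ end were found at short peaks with few reads. In replicate 1, 21 peaks ended 12 nt or more before the microRNA, with a median width of 5 nt and a median of 4 reads, and in replicate 2 there were 15, with the same medians. Among peaks with at least 10 reads the 5′ end lay within 1 nt in 86.0% of replicate 1 and 81.6% of replicate 2, against 76.7% and 76.1% of those with fewer. The 3′ end lay within 1 nt in 61.3% and 52.9%, against 42.2% and 45.7%. The closer fit of the 5′ end was therefore found at both levels of reads. On the 5p arm the 5′ ends coincided in 58.2% of peaks in replicate 1 and 56.7% in replicate 2, and on the 3p arm in 38.8% and 41.5%.

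Between the libraries, 182 of 212 peaks in replicate 1 (85.8%, exact 95% binomial interval 80.4 to 90.2%) and 182 of 210 in replicate 2 (86.7%, 81.3 to 91.0%) overlapped a microRNA peak of the other library by at least 1 nt on the same strand. With any peak of the other library as partner, the shares were 91.5% and 93.8%. Over all peaks, 60.5% in replicate 1 and 55.8% in replicate 2 overlapped a peak of the other library. Since microRNA peaks held more reads than the median peak, the shares were also compared at like read numbers. With 5 to 9 reads, 92.9% of microRNA peaks in replicate 1 and 90.6% in replicate 2 had a partner, against 64.6% and 56.1% of all peaks. With 10 to 19 reads, all 64 microRNA peaks of replicate 1 and all 63 of replicate 2 had a partner, against 88.3% and 82.7%. With 3 to 4 reads the shares were 58.1% and 77.3%, against 33.7% and 27.6%, from only 31 and 22 microRNA peaks.

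**Figure D4:**
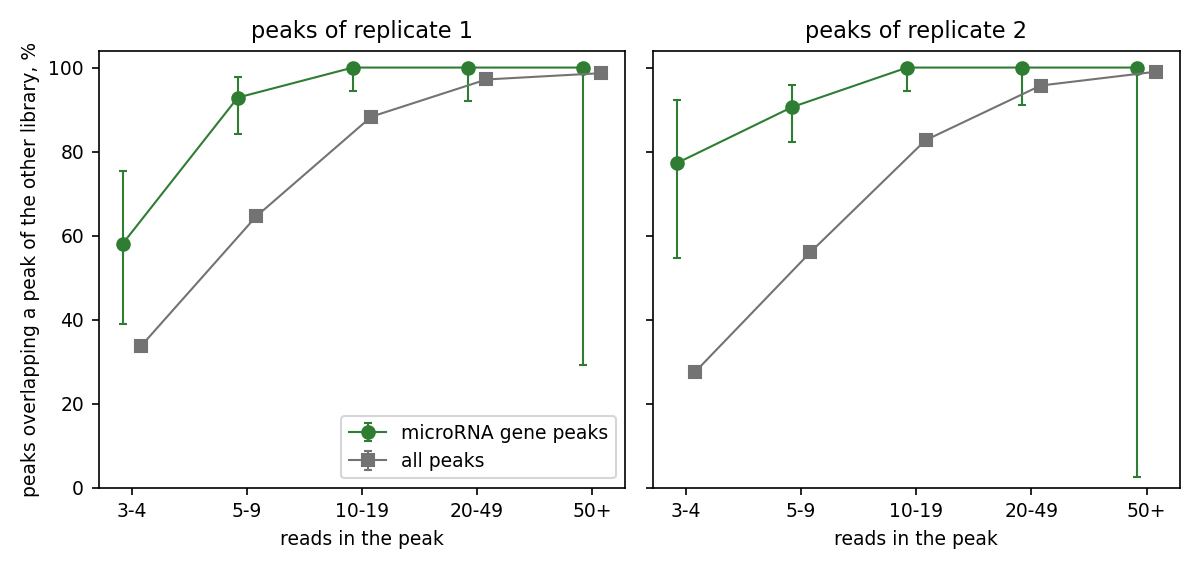
Percent of peaks that overlap any peak of the other library, by the number of reads in the peak, for microRNA peaks and all peaks in each library, with exact 95% binomial intervals that cover counting error only. Connecting lines only guide the eye. The microRNA peaks lie above all peaks in each class up to 19 reads, as with 92.9% against 64.6% at 5 to 9 reads in replicate 1.

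Read numbers per gene followed each other in both libraries. Over the 169 genes with a peak in both, the median log2 ratio of replicate 2 to replicate 1 was 0.00, with quartiles of -0.32 and 0.24. The ratio was within 1.5-fold for 139 genes and within 2-fold for 162. Pearson's correlation of log2 reads was 0.89 and Spearman's 0.88 over these 169 genes, as a description, since the genes share the libraries and reads can be listed at several loci. These genes were kept for having a peak in both libraries, and over all 208 genes Pearson's correlation of log2(reads + 1) was 0.66. The 39 genes with a peak in 1 library only had few reads, at most 9 for the 19 of replicate 1 and at most 7 for the 20 of replicate 2.

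**Figure D5:**
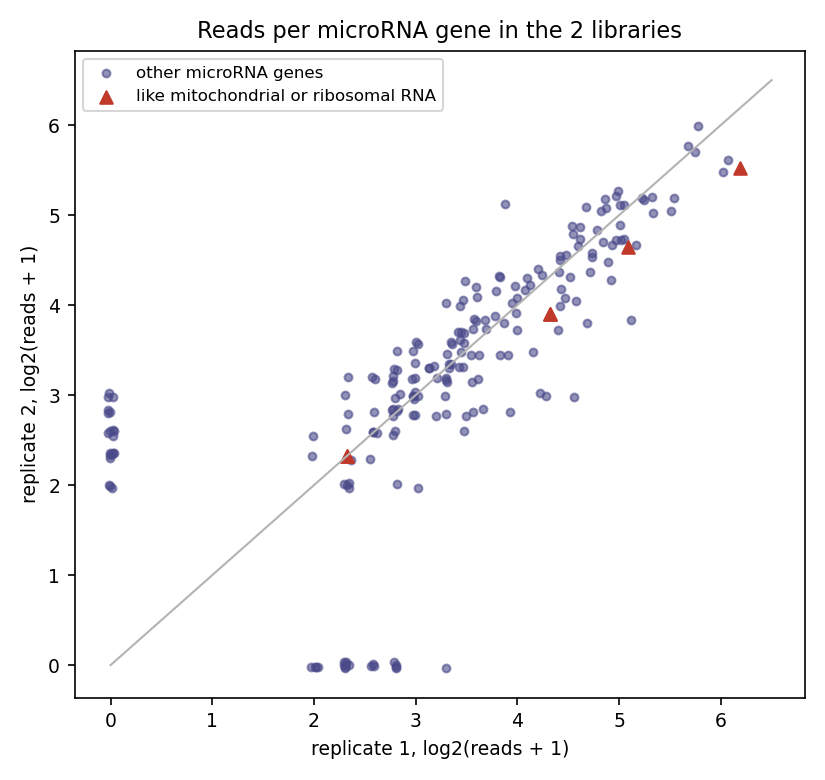
Reads per microRNA gene as log2(reads + 1), replicate 1 on the horizontal and replicate 2 on the vertical axis, with a small random shift of the points so that equal values can be seen. Red triangles mark genes like mitochondrial or ribosomal RNA and the line marks equality. Among the 169 genes with reads in both libraries, 139 lie within 1.5-fold of that line.

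The genes that differed most between the libraries, among those with at least 10 reads in either, were few. MIR374A had 23 reads in replicate 1 and 7 in replicate 2, a log2 ratio of -1.72, but 11 of the 23 lay in a further peak found in replicate 1 alone. MIR10B, next to the HOXD genes, and MIR3653, in a small nucleolar RNA, each had 18 and 7 reads (-1.36), and 7 of the 18 of MIR10B lay in a further peak of replicate 1. MIR1291, within the small nucleolar RNA SNORA2C, had 33 and 13 (-1.34), and MIR375 had 14 and 6 (-1.22). In the other direction, MIR30A had 14 reads in replicate 1 and 34 in replicate 2 (1.28), with a peak of 16 reads on its 3p arm in replicate 2 alone. MIR1301 had 10 and 18 (0.85), MIR28 had 9 and 15, MIR3679 had 6 and 10 (0.74 each), and MIR15B had 10 and 16 (0.68). On its 5p arm MIR15B had 10 and 9 reads, and a 3p peak of 7 reads was found in replicate 2 alone. With a single group and 2 libraries these differences have no test.

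Of the 208 genes, 6 were taken as like mitochondrial or ribosomal RNA. For mitochondrial RNA this meant an alignment with at least 90% identity over at least 50% of the hairpin. For ribosomal RNA it meant a place in a ribosomal RNA precursor gene, or such an alignment to a hairpin that lies there. No hairpin was marked by an alignment to a mature ribosomal RNA. These 6 genes took 5.27% of the microRNA reads in replicate 1 and 3.84% in replicate 2. MIR6723, at chr1:632325-632413 on the minus strand, matched the reverse complement of the mitochondrial gene MT-CO1 with 98.9% identity over all 89 nt, and the pseudogene MTCO1P12 lies at the same place on the plus strand. It had 72 reads in replicate 1 and 45 in replicate 2, the highest mean of the 208 genes, and 73 and 50 under the overlapping entry AL669831.3. Its single peak spanned 29 nt in replicate 1 and 28 nt in replicate 2, longer than the median microRNA peak. MIR4461, at chr5:134928039-134928112 on the plus strand in an intron of PCBD2, matched the reverse complement of MT-ND4L with 97.1% identity over 69 of 74 nt. It had 33 and 24 reads, with peaks of 21 and 20 nt. Both therefore lie opposite in strand to the mitochondrial messenger RNA, and whether their reads came from the nuclear or the mitochondrial copy was not tested.

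MIR4463 matched MT-ND5 over 19 of 67 nt, which is below the limit, and had 6 reads in replicate 2 alone. MIR3648-1 and MIR3687-1 lie in a ribosomal RNA precursor gene on chromosome 21, and MIR3648-2 and MIR3687-2 are copies with 100% identity. Each MIR3648 copy had 19 reads in replicate 1 and 14 in replicate 2, and each MIR3687 copy had 4 in each library. In replicate 1 the MIR3648-1 peak spanned 34 nt and in replicate 2 it spanned 36 nt, more than a mature microRNA. Of the other 7 microRNAs on the list of ribosomal-like entries, 0 had a peak. On the list of entries inside small nucleolar RNAs, 5 of 9 annotated genes had a peak, with 75 reads in replicate 1 and 45 in replicate 2, led by MIR1291. Of these, 4 overlap a small nucleolar RNA in GENCODE 29, and the other, MIR3609, lies in an intron of TRRAP, with 9 and 8 reads. Under identifiers not in GENCODE 29, 3 more of that list had peaks, MIR1248, MIR6516 and MIR1292. They had 32 reads in replicate 1 and 17 in replicate 2. Entries like spliceosomal, Y, vault or transfer RNA had a peak in 0 of 4. The share over all annotated microRNA genes was 11.1%, and these short lists were not tested against it.

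Of 38 microRNAs on the list of those typical of other cell types, 4 had a peak, with 38 reads in replicate 1 and 37 in replicate 2. This share is close to the 11.1% of all annotated microRNA genes that had a peak. MIR126, known from endothelium, had 15 and 18 reads, and MIR375, known from endocrine cells, had 14 and 6. MIR200C, which represses ZEB1 in epithelium, had 9 in each library, and its neighbour MIR141 had 0 and 4. No peak lay on the genes for liver, muscle, neurons, blood, smooth muscle or pluripotent cells under a GENCODE 29 identifier. Under the other identifiers 3 more of the 38 had peaks, with 30 reads in replicate 1 and 38 in replicate 2. These were MIR9-2 and MIR9-3 of the neuron list, each with 15 and 17 reads, and MIR133A1 of the muscle list, with 0 and 4. The equal reads of MIR9-2 and MIR9-3 may be the same reads listed at both loci, which was not tested.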

How the data were processed

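Per the labels, 2 small-RNA libraries of HEK293T cytoplasmic RNA formed 1 group. Per the submitters' processing notes, cutadapt 4.2, UMI-tools 1.1.4, STAR 2.7.11 and GRCh38 were used; the file names show peaks from CLIPper, 1 list per library. For CLIPper, neither version nor annotation is stated in the sources used here. The authors deposited for each peak a p-value as CLIPper writes it, at most 0.0460, and a raw read count in its name. Total depth is unknown from these files.

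Rows were matched to GENCODE 29 by gene identifier without version, and mature and hairpin sequences came from RefSeq on GRCh38.p14. Hairpins were compared with mitochondrial and ribosomal RNA by BLAST 2.17.0. Shares carry exact 95% binomial intervals. Clusters joined genes at most 10 kb apart. Analyses used matplotlib 3.10.9, scipy 1.17.1, pandas 2.3.3, numpy 2.4.6 and Python 3.11.15, and the code was tested on simulated data.

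The genes named are the 25 with the most reads, those like mitochondrial or ribosomal RNA, leading genes of families, clusters and lists, and the 5 most different in each direction between libraries. Other genes named were chosen after their values were seen. The peaks and the lists were chosen with earlier results of these data known. Alternatives covered the p-value, a minimum of 10 reads, the overlap, duplicate positions, cluster distance and leaving out a replicate.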

Additional observations from a re-analysis of the deposited data

How the results depend on the processing

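The counts moved with the thresholds. Over both libraries, 78 peaks had a p-value at or under 1e-05 and 214 had at least 10 reads, against 422 in all (210 to 212 without a replicate). Genes in both libraries numbered 30 and 86, against 169. The share overlapping a microRNA peak of the other library was 81.0% with 50% reciprocal overlap, 77.1% with p at or under 1e-05 and 92.7% with any partner, against 86.3%. The percent of reads was 0.218% without ribosomal RNA entries in the total and 0.0885% with p at or under 1e-05, against 0.168% (0.160 to 0.176% without a replicate). With p at or under 1e-05, 91.4% of summits lay on a mature sequence, against 93.5% (93.2 to 93.8% without a replicate). The share like mitochondrial or ribosomal RNA was 3.84 to 5.27% without a replicate, against 4.56%. Of alternatives chosen after seeing the data, hairpins under identifiers not in GENCODE 29 raised the percent of reads to 0.228%, and hairpins with 2 mature entries gave 100% of summits. Causes were not tested. The other alternatives kept each value within its spread or each count within 1.5-fold. No paired analysis was possible because there is 1 group. Peaks of 3 to 4 reads limit what can be said of single genes.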
